A study of Mus musculus with 3 samples.

Results

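Glycosaminoglycan enzymes and proteoglycans were described in the mouse melanoma line B16, here a stable derivative with an empty vector (Mock). Members were taken by gene symbol, as the enzymes that start, extend, epimerise and sulfate heparan sulfate (HS) and chondroitin or dermatan sulfate (CS, DS), the hyaluronan synthases and hyaluronidases, and the main proteins that carry the chains. Of 17285 genes in the table, 58 were members, and each fell into 1 of 13 role groups. RNA was sequenced from Mock replicates 1, 2 and 3, the only group, so no condition could be compared. The labels do not give whether the vector line is 1 clone or whether the replicates are separate cultures, and 1 protocol field speaks of organs. The p-values therefore reflect the differences among 3 samples that may be repeats of 1 culture. The title of the series names the ganglioside sialyltransferase ST8Sia5, and the labels say nothing of glycosaminoglycans. In bulk RNA, fewer cells that express a gene and less of its RNA per cell cannot be told apart.

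Glycosaminoglycans are long sugar chains built in the Golgi on serines of core proteins. Enzymes first build a short linkage region, and the next sugar added decides whether heparan sulfate or chondroitin sulfate follows. Sulfotransferases and epimerases then modify the chains, which gives them their binding sites for growth factors, chemokines and matrix proteins. Hyaluronan differs in that it is made at the plasma membrane, is not sulfated and has no core protein. Cell surface proteoglycans of melanoma cells are known for roles in adhesion and growth factor binding.

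Estimated counts summed over all genes of the table were 9328087, 9456501 and 9438894 in replicates 1, 2 and 3. Counts are called reads here, and these sums are not the number of reads sequenced. Levels are given as CPM, reads scaled to a common library size after TMM normalization. A single read was worth 0.106 to 0.107 CPM. No read in any library allows up to 3 reads over the group, or 0.106 CPM, and such limits cover counting error only. Pigment cell markers matched the label, with 7 of 7 above 1 CPM and a summed level of 23044 to 24377 CPM per library. Summed levels of the other lists were 32.6 to 38.1 CPM for 7 fibroblast markers, 0 to 0.530 CPM for 6 leukocyte markers and 0.212 to 0.748 CPM for 6 endothelial markers. The fibroblast sum came from Col1a1 and Col1a2, with 5 reads of Pdgfra, while Dcn, Col3a1, Thy1 and Fap had no count. Tyrobp, Csf1r, Adgre1, Cd3g and Cd4 of the leukocyte list and Cdh5, Kdr, Tie1 and Emcn of the endothelial list had no count.

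Genes for the linkage region, for both chain polymerases, for N-, 2-O- and 6-O-sulfation of heparan sulfate and for dermatan sulfate were above 1 CPM. No measured member for 3-O-sulfation, HNK-1 synthesis, extracellular sulfatases, the matrix core proteins Vcan and Bgn or hyaluronan synthases was called above 1 CPM. Some genes of these groups were not analysed here, and Sulf2, Vcan and B3gat2 had no call in either direction. Of 15 further core proteins that are not members, 5 were above 1 CPM, among them the matrix genes Hspg2, Agrn and Fmod. Of 58 members, 34 were above 1 CPM, 11 below, 3 without a call and 10 without a count (edgeR's quasi-likelihood F test of each level against 1 CPM, adjusted over all genes). The share above was 70.8% of the 48 members with a count, against 74.3% of the 14408 genes tested. The share below was 22.9% of those members, against 20.2% of all genes tested. Both shares lie near those of all genes and are no result about the members as a set. DESeq2's Wald test called none of the 11 below 1 CPM, and no other gene of the table either. The largest adjusted p was 0.00290 (Chst3) among members called above and 0.0411 (Has3) among those called below. The median level per kilobase of merged exon was 3.25 CPM over all 58 members and 2.86 CPM over the 16838 genes of the table with a length. Together the members held 2733.7 to 2759.6 CPM per library after TMM scaling.

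**Figure D1:**
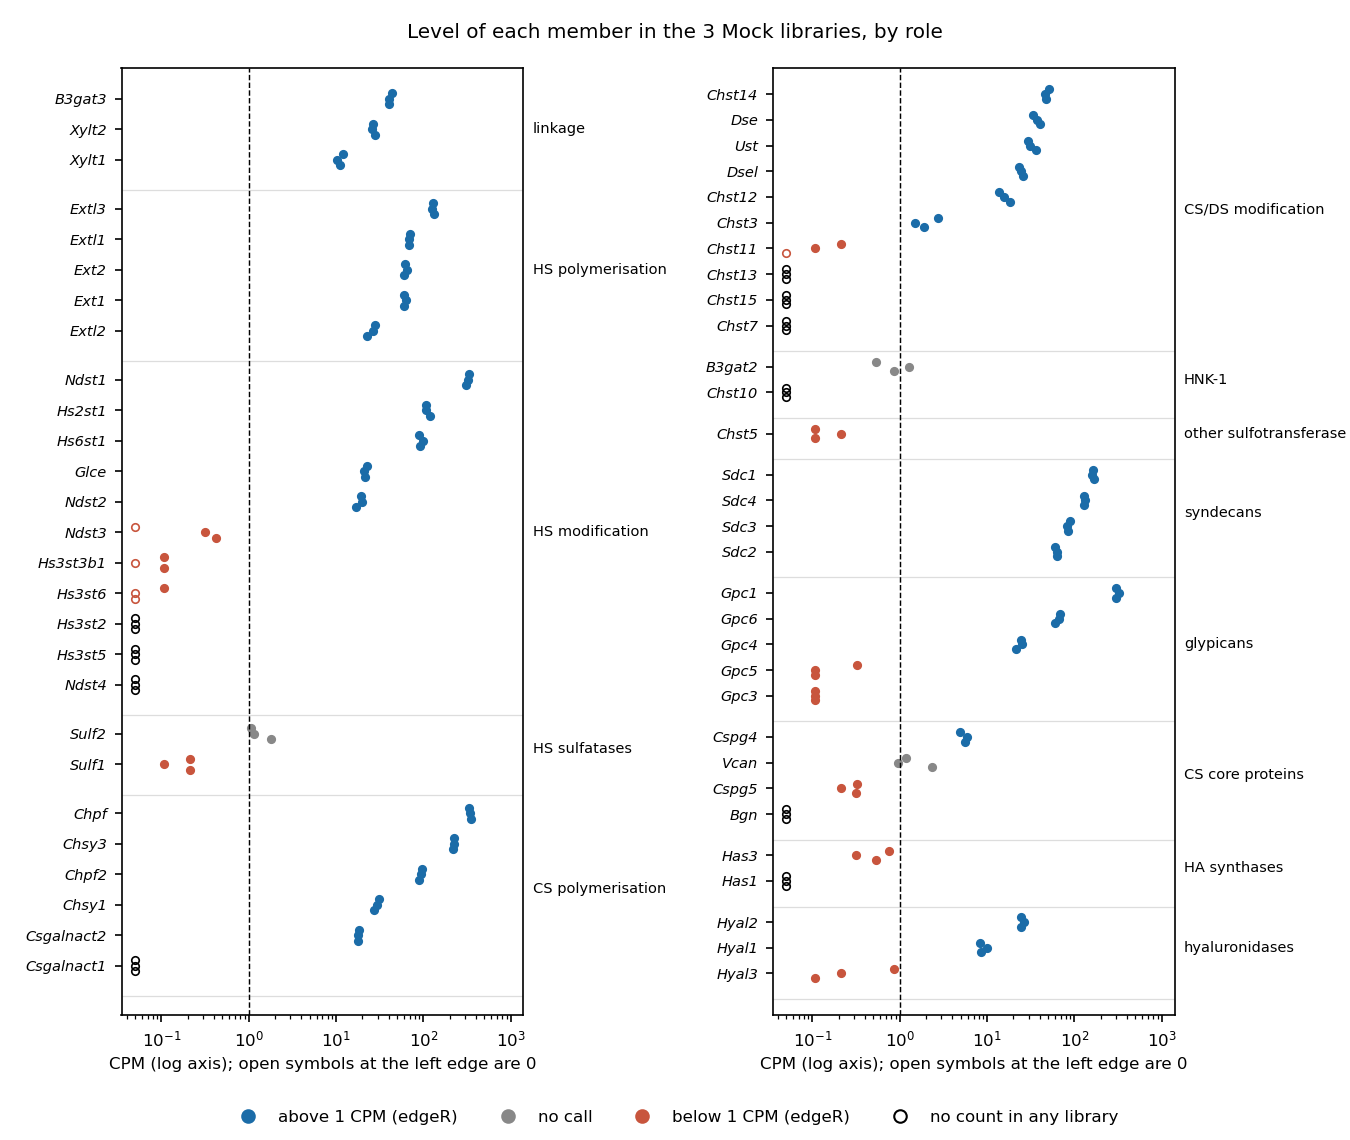
Level of each of the 58 members (rows, by role) in the 3 Mock libraries (points) on a log axis of CPM, with the dashed line at 1 CPM and open symbols for a library with no read. Blue members were called above 1 CPM (34), red below (11) and grey had no call (3), and members with no count (10) sit at the left edge; levels of different genes also differ through their lengths.

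The linkage region enzymes were all transcribed. B3gat3, whose enzyme adds the glucuronic acid that completes the linkage, had 43.3, 40.7 and 40.2 CPM in replicates 1, 2 and 3, or 15.99 ± 0.637 CPM per kilobase (SD, n = 3, as for all values with ±). Xylt2, which transfers xylose to the core protein serine, had 26.7, 25.7 and 27.7 CPM. Its paralogue Xylt1 had 11.97, 10.3 and 11.2 CPM, and per kilobase all 3 libraries of Xylt1 (1.07 to 1.24 CPM) lay under those of Xylt2 (6.45 to 6.96 CPM). The log2 ratio of Xylt1 to Xylt2 per kilobase was -2.53 ± 0.09, with 9651 exon bases for Xylt1 and 3979 for Xylt2.

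Every gene of the exostosin family, which polymerises heparan sulfate, was above 1 CPM. Extl3, whose enzyme adds the first N-acetylglucosamine of a heparan sulfate chain, had 129.6, 127 and 132 CPM, or 21.3 ± 0.419 CPM per kilobase. Extl1, an EXT-like glycosyltransferase, had 69.6, 68.4 and 68.9 CPM, or 15.9 ± 0.137 CPM per kilobase. The polymerase subunits are Ext1 and Ext2. Ext1 had 59.9, 62.5 and 60.6 CPM, and Ext2 had 61.2, 64.2 and 60.7 CPM. Per kilobase the libraries of Ext1 (7.42 to 7.74 CPM) lay just under those of Ext2 (8.28 to 8.77 CPM). Extl2, whose enzyme can cap the linkage region, had 28.1, 26.7 and 22.6 CPM. Per kilobase Extl3 made up 35.1% ± 1.003 of the family, Extl1 26.2% ± 0.318, Ext2 13.9% ± 0.400, Ext1 12.4% ± 0.310 and Extl2 12.3% ± 1.23. The shares of Ext1 and Extl2 differed by less than the spread of Extl2. With the longest transcript the share of Ext2 was 23.3% ± 0.590, level with the 23.4% ± 0.362 of Extl1, while Extl3 stayed first at 30.1% ± 0.9501. The log2 ratio of Ext1 to Ext2 per kilobase was -0.16 ± 0.02 (limma adjusted p = 0.00825). It depends on the length used, at -1.07 per kilobase of the longest transcript and -0.02 for reads alone (limma adjusted p = 0.629).

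Of 11 measured enzymes that sulfate and epimerise heparan sulfate, 5 were above 1 CPM, 3 below and 3 without a count. Ndst1 (chromosome 18, 60684494 to 60748650, minus strand, GRCm38), whose enzyme replaces N-acetyl by N-sulfate groups and so opens the way to later sulfation, had 332, 323 and 309.8 CPM. Ndst2, whose enzyme does the same and is best known from mast cell heparin, had 19.4, 19.9 and 17.1 CPM from partly fractional reads. Ndst1 thus made up 90.3% ± 0.469 of the family per kilobase, and its log2 ratio to Ndst2 was 3.23 ± 0.08. Ndst3 had 0, 3 and 4 reads and was below 1 CPM (edgeR adjusted p = 0.00989), a call lost without replicate 2 (0.0842) or without replicate 3 (0.0568). Ndst4 had no read, which per kilobase places it at least 4283-fold lower than Ndst1 with merged exons and 3464-fold with the longest transcripts (floor of 3 reads over the group).

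Hs6st1, which encodes a 6-O-sulfotransferase, had 89.96, 99.2 and 92.5 CPM, or 16.9 ± 0.863 CPM per kilobase. Hs2st1, for 2-O-sulfation of iduronic acid, had 108, 107 and 119 CPM, or 13.6 ± 0.802 CPM per kilobase. Glce, the C5-epimerase that makes this iduronic acid, had 3.16 ± 0.144 CPM per kilobase. Its libraries (3.04 to 3.32 CPM) lay under those of Ndst2 (3.76 to 4.38 CPM) per kilobase of merged exon, but overlapped them per kilobase of the longest transcript (4.28 to 4.67 CPM for Glce and 4.37 to 5.10 CPM for Ndst2). None of the 4 measured 3-O-sulfotransferases, a family whose members include the enzyme that finishes the antithrombin binding site of heparin, was above 1 CPM. Hs3st3b1 had 2 reads and Hs3st6 had 1 read in all 3 libraries, and both were below 1 CPM, while Hs3st2 and Hs3st5 had none. Hs3st1, Hs3st3a1 and Hs3st4 were not analysed here.

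The extracellular sulfatases that remove 6-O-sulfate were scarce. Sulf2 had 1.07, 1.17 and 1.80 CPM, with replicate 3 highest, and was without a call (edgeR adjusted p = 0.148). Sulf1 had 2, 1 and 2 reads and was below 1 CPM (0.00129). Per kilobase the 5 reads of Sulf1 equal 6.84% of the Sulf2 level, with an exact 95% interval of 2.10% to 17.4%. With the longest transcripts the share was 10.8% (3.31% to 27.4%). Both intervals are binomial, from reads pooled over the libraries, and cover counting error only.

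Chondroitin sulfate polymerisation held the member with the highest level per kilobase, and 5 of its 6 genes were above 1 CPM. Chpf (chromosome 1, 75474569 to 75479307, minus strand), which encodes the chondroitin polymerising factor, had 335, 343 and 353 CPM, or 89.1 ± 2.31 CPM per kilobase. Chsy3 (chromosome 18, 59175401 to 59535999, plus strand), a chondroitin synthase that acts with that factor, had 226, 226 and 219 CPM, or 30.9 ± 0.582 CPM per kilobase. Its paralogue Chsy1 had 30.8, 29.4 and 26.9 CPM. Per kilobase its libraries (6.45 to 7.37 CPM) lay under those of Chsy3 (30.3 to 31.3 CPM), and the log2 ratio of Chsy1 to Chsy3 was -2.15 ± 0.07. The ratio was wider with the longest transcript (-2.79) and for reads alone (-2.95). Chpf2 had 97.9, 93.7 and 88.3 CPM. Its count is uncertain, because its reads were partly fractional and 44.1% of its exon bases overlap Smarcd3 on the other strand. Of the per-kilobase sum of these 4 genes Chpf made up 62.01% ± 1.41, Chsy3 21.5% ± 0.455, Chpf2 11.6% ± 0.633 and Chsy1 4.84% ± 0.338.

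The enzymes that add the first N-acetylgalactosamine were represented by 1 of 2 paralogues. Csgalnact2 had 18.5, 18.02 and 18.03 CPM, or 3.34 ± 0.0487 CPM per kilobase. Csgalnact1 had no read, at least 160-fold lower than Csgalnact2 per kilobase with merged exons and 128-fold with the longest transcripts (floor of 3 reads over the group).

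**Figure D2:**
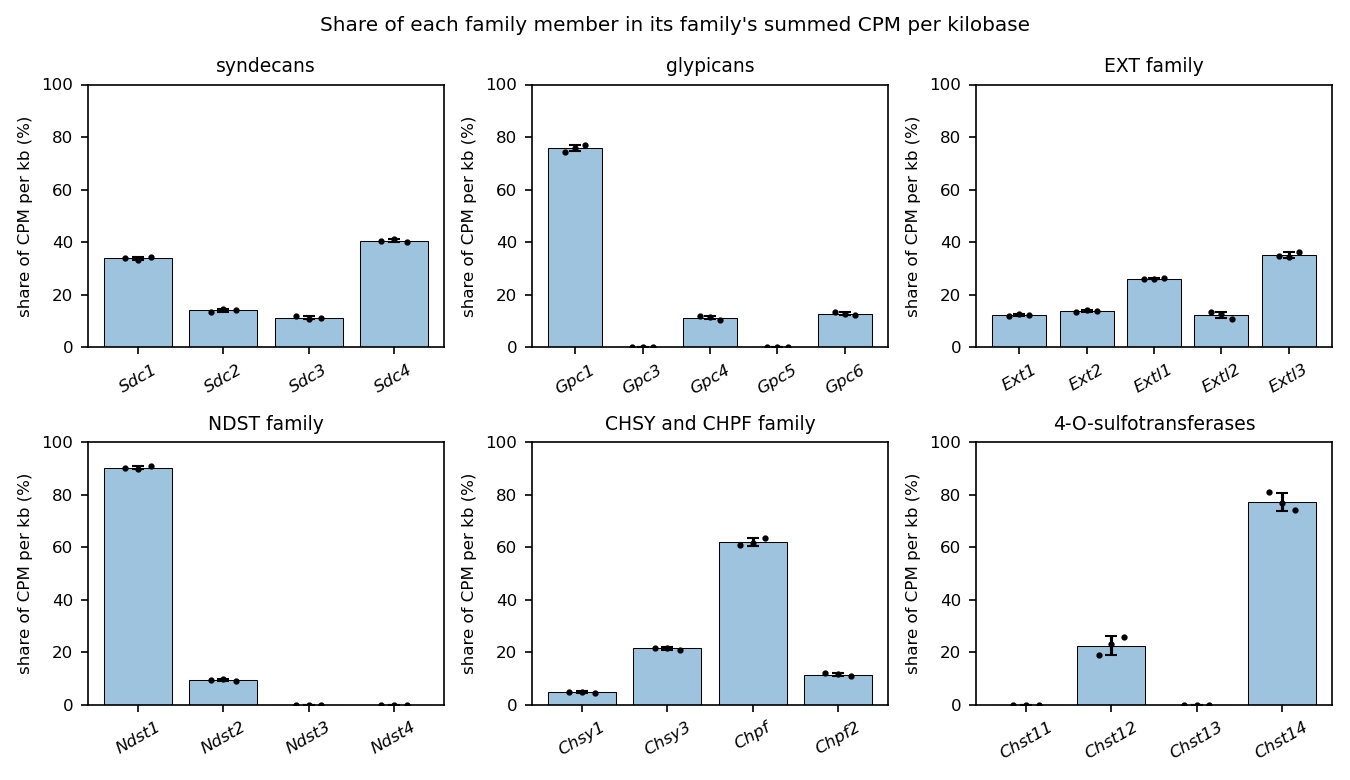
Share (percent) of each gene in the summed CPM per kilobase of its family, for 6 families, with bars for the mean, error bars for the SD and points for the 3 Mock libraries. Ndst1 (90.3%), Chst14 (77.3%), Gpc1 (75.8%) and Chpf (62.01%) each made up most of the measured sum of their family, whereas syndecans and exostosins were spread over several genes. Gpc2 was not analysed here and is not in the glypican sum.

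Among enzymes that modify chondroitin and dermatan sulfate, 6 of 10 were above 1 CPM, 1 was below and 3 had no count. All 4 genes for dermatan sulfate and uronic acid sulfation were above. Chst14, whose enzyme 4-O-sulfates galactosamine next to iduronic acid, had 51.3, 46.2 and 46.9 CPM, or 23.0 ± 1.32 CPM per kilobase. The epimerase gene Dse, which creates that iduronic acid, had 33.3, 37.2 and 40.4 CPM, and its paralogue Dsel had 23.3, 24.4 and 25.9 CPM. Per kilobase the libraries of Dse (6.69 to 8.11 CPM) lay above those of Dsel (4.04 to 4.49 CPM). The log2 ratio of Dse to Dsel was 0.80 ± 0.07 per kilobase. Ust, for 2-O-sulfation of uronic acid, had 29.5, 30.7 and 36.1 CPM. Per kilobase Dse (7.43 ± 0.711 CPM) and Ust (6.94 ± 0.755 CPM) differed by less than their spread.

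The 3 paralogues that 4-O-sulfate chondroitin itself were unequal. Chst12 had 13.6, 15.7 and 18.5 CPM, or 6.73 ± 1.04 CPM per kilobase. Chst11 had 2, 1 and 0 reads and was below 1 CPM (edgeR adjusted p = 0.00147), and Chst13 had no read. Per kilobase the 3 reads of Chst11 equal 0.286% of the Chst12 level, with an exact 95% interval of 0.0587% to 0.840%. This interval is binomial, from pooled reads, and covers counting error only. Chst13 was at least 105-fold lower than Chst12 per kilobase (floor of 3 reads over the group). The other 4-O-sulfotransferase gene, Chst14, made up 77.3% ± 3.40 of the per-kilobase sum of all 4, and Chst12 made up 22.6% ± 3.47. Of the 6-O-sulfotransferases, Chst3 had 2.78, 1.48 and 1.91 CPM and was above 1 CPM by edgeR, a call that DESeq2's Wald test did not make (adjusted p = 0.496). Chst7 had no read, and neither had Chst15, whose enzyme adds a further sulfate to 4-sulfated units.

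The windows around the RefSeq start sites of the 3 chondroitin 4-O-sulfotransferase genes are shown because 1 of these paralogues was transcribed and the others were at the floor. They run from 250 bases before to 50 after the start (RefSeq, GRCm38.p6), with CpG dinucleotides in capitals. Chst12 lies at chr5:140505359-140505658 on the plus strand, Chst11 at chr10:82985247-82985546 on the plus strand and Chst13 at chr6:90325136-90325435 on the minus strand.
Chst12: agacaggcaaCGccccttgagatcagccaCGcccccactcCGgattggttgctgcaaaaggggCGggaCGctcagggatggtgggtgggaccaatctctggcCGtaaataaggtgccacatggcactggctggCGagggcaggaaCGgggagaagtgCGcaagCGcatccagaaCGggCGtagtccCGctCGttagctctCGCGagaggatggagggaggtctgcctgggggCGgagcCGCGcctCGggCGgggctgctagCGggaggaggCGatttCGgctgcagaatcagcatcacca
Chst11: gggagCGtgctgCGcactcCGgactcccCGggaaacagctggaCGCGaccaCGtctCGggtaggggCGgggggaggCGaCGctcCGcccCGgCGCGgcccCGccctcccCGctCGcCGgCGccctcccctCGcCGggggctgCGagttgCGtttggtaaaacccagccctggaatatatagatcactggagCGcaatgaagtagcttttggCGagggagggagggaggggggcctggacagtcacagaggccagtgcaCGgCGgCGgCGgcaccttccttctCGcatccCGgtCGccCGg
Chst13: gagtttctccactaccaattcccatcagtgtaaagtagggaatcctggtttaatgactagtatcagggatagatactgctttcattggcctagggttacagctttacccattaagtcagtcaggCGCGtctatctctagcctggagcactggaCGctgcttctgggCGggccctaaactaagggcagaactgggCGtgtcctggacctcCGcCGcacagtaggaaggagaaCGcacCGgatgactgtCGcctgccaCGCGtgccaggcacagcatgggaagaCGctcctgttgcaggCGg
The window of Chst12 holds 24 CpG, that of Chst11 34 and that of Chst13 14. Chst11 and Chst13 both lie at the floor, and a link between CpG counts and levels was not tested.

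HNK-1 is a sulfated glucuronic acid epitope of neural and neural crest cells. Of its genes, B3gat2, a glucuronyltransferase, had 0.534, 1.27 and 0.848 CPM and no call (edgeR adjusted p = 0.613). Its reads were partly fractional, 33.5% of its exon bases overlap Smap1 on the other strand, and without replicate 1 its level lay slightly above 1 CPM (log2 0.082). Chst10, the HNK-1 sulfotransferase, had no read. Chst5, a sulfotransferase for N-acetylglucosamine, had 1, 2 and 1 reads and was below 1 CPM. B3gat1, Chst1, Chst2, Chst4, Chst8 and Chst9 were not analysed here.

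All 4 syndecans, transmembrane proteoglycans, were above 1 CPM. Sdc1 (chromosome 12, 8771323 to 8793715, plus strand), which can carry heparan and chondroitin sulfate, had 162, 159 and 167 CPM. Sdc4 (chromosome 2, 164424247 to 164443887, minus strand), a component of focal adhesions, had 128.7, 132 and 130.3 CPM. Sdc3 had 88.7, 82.7 and 85.4 CPM, and Sdc2 had 59.8, 64.0 and 64.0 CPM. Per kilobase of merged exon Sdc4 came first at 51.2 ± 0.611 CPM, then Sdc1 at 42.8 ± 1.09, Sdc2 at 17.7 ± 0.681 and Sdc3 at 14.3 ± 0.502, and no libraries of neighbours in this order overlapped.

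The log2 ratio of Sdc1 to Sdc4 was -0.26 ± 0.05 (limma adjusted p = 1.07e-05) and that of Sdc3 to Sdc2 was -0.31 ± 0.10 (1.18e-05). With the length of the longest transcript both ratios came near 0, at -0.04 for Sdc1 to Sdc4 (limma adjusted p = 0.201) and -0.04 for Sdc3 to Sdc2 (0.403). Reads alone gave the opposite direction, at 0.32 for Sdc1 to Sdc4 and 0.45 for Sdc3 to Sdc2. The order within each of these pairs therefore rests on the length assigned to the genes.

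Glypicans, which hang on the membrane by a lipid anchor, were led by a single gene. Gpc1 (chromosome 1, 92831645 to 92860779, plus strand) had 299.9, 322 and 302 CPM, or 59.7 ± 2.40 CPM per kilobase, and 18.9% of its exon bases overlap Ankmy1 on the other strand. Gpc6 had 67.5, 66.6 and 60.5 CPM and Gpc4 had 24.6, 24.9 and 21.3 CPM. Per kilobase Gpc6 had 10.1 ± 0.597 CPM and Gpc4 8.90 ± 0.748 CPM, and the lowest library of Gpc6 (9.41 CPM) was level with the highest of Gpc4 (9.40 CPM). With the longest transcript they stood apart, with 14.6 to 16.3 CPM per kilobase for Gpc6 and 8.04 to 9.40 for Gpc4. The log2 ratio of Gpc1 to Gpc6 was 2.56 ± 0.09. Gpc3, known as an oncofetal liver glypican, had 1 read in each library, and Gpc5 had 3, 1 and 1 reads. Both were below 1 CPM (edgeR adjusted p = 6.05e-04 for Gpc3 and 0.00184 for Gpc5). Gpc2 was not analysed here.

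The members held 11 core proteins with a membrane anchor, namely the syndecans, the measured glypicans, Cspg4 and Cspg5. Over these 11, Gpc1, Sdc4 and Sdc1 made up 29.1% ± 0.778, 24.9% ± 0.130 and 20.8% ± 0.738 of the summed CPM per kilobase. Genes that are not members were left out of this sum. Cspg4, the transmembrane chondroitin sulfate proteoglycan NG2 whose human counterpart is a melanoma antigen, made up 0.221% ± 0.0166. It had 4.91, 5.83 and 5.52 CPM and was the only core protein of the chondroitin group above 1 CPM. Versican (Vcan), a large matrix proteoglycan, had 1.18, 0.954 and 2.33 CPM, highest in replicate 3, and no call (edgeR adjusted p = 0.102). Cspg5, a neural proteoglycan, had 3, 2 and 3 reads and was below 1 CPM. Biglycan (Bgn), a small matrix proteoglycan of connective tissue, had no read, and per kilobase it was at least 26.1-fold lower than Cspg4 with merged exons and at least 16.7-fold lower with the longest transcripts (floor of 3 reads over the group).

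The measured hyaluronan synthases were scarce. Has3 had 0.748, 0.318 and 0.530 CPM and was below 1 CPM (edgeR adjusted p = 0.0411), a call lost without replicate 2 (0.116) or replicate 3 (0.139). Has1 had no read, and Has2 was not analysed here, so hyaluronan synthesis cannot be judged as a whole. Of the hyaluronidases, which lie side by side on chromosome 9, Hyal2 (107567945 to 107572779), a membrane-anchored enzyme, had 24.3, 26.4 and 24.6 CPM. Hyal1 (107576927 to 107581710), its lysosomal partner, had 8.33, 9.86 and 8.48 CPM, and 50.8% of its exon bases overlap Naa80 on the same strand. Per kilobase the libraries of Hyal1 (2.21 to 2.61 CPM) lay under those of Hyal2 (7.37 to 8.02 CPM), and the log2 ratio was -1.69 ± 0.07. Hyal3 (107580818 to 107587359), which overlaps both Hyal1 and Naa80, had 0.855, 0.212 and 0.106 CPM from partly fractional reads. It was below 1 CPM (edgeR adjusted p = 0.0360), but not without replicate 2 (0.231) or replicate 3 (0.215).

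All 12 of the testable pairs of paralogues or partners differed per kilobase (limma, largest adjusted p = 0.00825 for Ext1 to Ext2). This is no result by itself, because most genes of the table differed from the second gene of each pair in the same fits. The share was 96% for the fit on Xylt2, 96.2% for Ext2, 94% for Ndst2, 92.4% for Sulf2, 98.5% for Chsy3 and 96.8% for Chpf2. It was 89.7% for Chst12, 95.1% for Dsel, 99.3% for Sdc4, 97.3% for Sdc2, 95.2% for Gpc6 and 96% for Hyal2. The wide gaps were Chpf over Chpf2 at 2.42 ± 0.11 and Sulf1 under Sulf2 at -3.55 ± 0.47, beside those given above for Xylt1, Ndst1, Chsy1, Gpc1 and Hyal1. Chpf2, Gpc1 and Hyal1 share exon bases with other genes, as given above, and the SD does not cover reads assigned to the wrong gene. The fitted log2 ratio of Chst11 to Chst12 was -8.14 ± 1.41, a value that depends on the 0.5 reads added to each count. The ratio of Sulf1 to Sulf2, from 5 and 38 reads, depends on them too. It was -3.29 with a pseudocount of 1 and -2.90 with the longest transcript. This fitted ratio averages the log2 ratios of the libraries, whereas the 6.84% given above is from pooled reads without a pseudocount. The remaining pairs of the fixed 16 held a gene without a count or not analysed here.

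**Figure D3:**
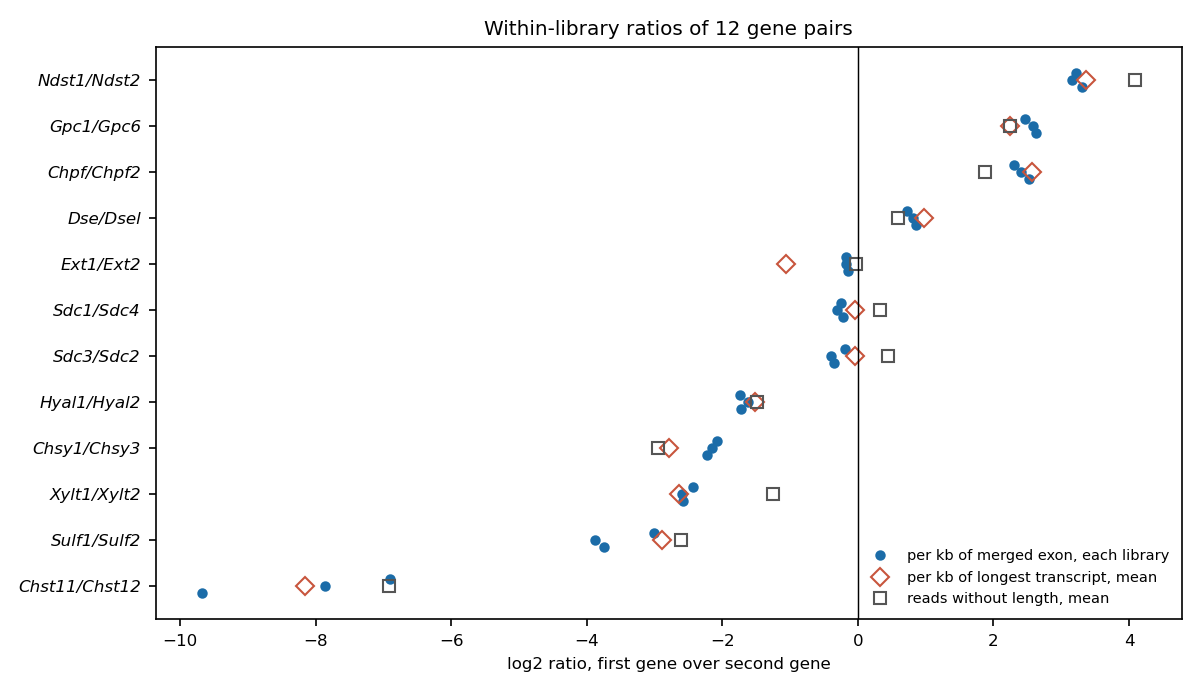
Log2 ratio of the first to the second gene of 12 pairs within each Mock library (blue points, per kilobase of merged exon), with the mean per kilobase of the longest transcript (red diamonds) and for reads without length (grey squares). Only Sdc1/Sdc4 and Sdc3/Sdc2 change side when length is left out, and Ext1/Ext2 moves from -0.16 to -1.07 with the longest transcript.

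None of the 36 members with a mean of at least 10 reads was called as varying beyond counting error, against 3.31% of all 11000 genes tested (Poisson deviance test, adjusted over all genes, smallest adjusted p among members = 0.148 for Gpc1). At an unadjusted p under 0.05 there were 8 such members (22.2%), against 14.9% of all genes. Both shares exceed the 0.05 that counting error alone would give, so the lack of calls does not show that variation was absent. The median ratio of the highest to the lowest library was 1.11 for members and 1.10 for all genes tested. The widest ratio was that of Vcan, at 2.45, from 42 reads in all.

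Of 53 measured genes of the same pathway outside the rule, 37 were above 1 CPM, 6 below, 1 without a call and 9 without a count. This is 84.1% of the 44 with a count, against the 74.3% of all genes. All 4 linkage genes were above, among them the xylose kinase gene Fam20b at 12.4 ± 0.589 CPM per kilobase and the galactosyltransferase gene B4galt7 at 9.45 ± 0.892 CPM per kilobase. Of 14 precursor supply genes 13 were above, among them Ugp2 (44.7 ± 0.359 CPM per kilobase), which makes UDP-glucose, and the nucleotide sugar transporter gene Slc35b4 (13.04 ± 0.339 CPM per kilobase). For the sulfate donor PAPS, Papss1 had 12.7 ± 0.951 CPM per kilobase, whereas its paralogue Papss2 had 1 read in all and was below 1 CPM. Both Papss genes were named with their values already known.

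Of 14 genes for degradation 12 were above 1 CPM, among them the hexosaminidase gene Hexa (192 ± 5.58 CPM per kilobase). The exceptions were both heparanase genes. Hpse, the endoglucuronidase that cuts heparan sulfate chains, had no read, and Hpse2, whose product has no known enzyme activity, had 7 reads and was below 1 CPM. Among other core proteins 5 of 15 were above. Perlecan (Hspg2) had 17.8 ± 0.107 CPM per kilobase and agrin (Agrn) 20.1 ± 0.685, and both carry heparan sulfate in basement membranes. Fmod was highest of this list per kilobase of merged exon, at 22.2 ± 1.58 CPM. Prelp (1.15 ± 0.197 CPM per kilobase) and Col18a1 (0.641 ± 0.151) were the others above. Fmod, Prelp and Col18a1 were named with their values already known. Dcn, Acan, Ncan, Srgn, Esm1 and Spock1 had no read. Of 6 genes for hyaluronan binding and turnover 3 were above, among them the receptor genes Cd44 at 47.7 ± 1.09 CPM per kilobase and Hmmr at 13.7 ± 0.944 CPM per kilobase, and Cemip and Hapln1 had no read.

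Start-site windows of 300 bases were matched by symbol for 43 of the 58 members. The 26 members above 1 CPM held a median of 22 CpG (8 to 47), the 9 below or without a call 17 (1 to 34) and the 8 without a count 13 (5 to 27). Over all genes of the table with a window the medians were 22 for 8566 genes above, 8 for 2606 below or without a call and 6 for 2118 without a count. These medians are a description, with no test. Hs3st2 (27 CpG) and Chst10 (21) are examples with no read, and Extl1 was transcribed with 9 CpG. The letters CACGTG are an E-box that reads the same on both strands and that the melanocyte factor MITF can bind. They stood in 3 of 43 member windows (6.98%), those of Chsy1, Chst14 and Ext2, and in 7.24% of all 27025 windows. Among genes above 1 CPM the shares were 11.5% of 26 member windows and 10.6% of the 8566 windows of table genes. CATGTG was also searched and stood in the windows of Chst12 and Ndst3, with no share over all windows computed.

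**Figure D4:**
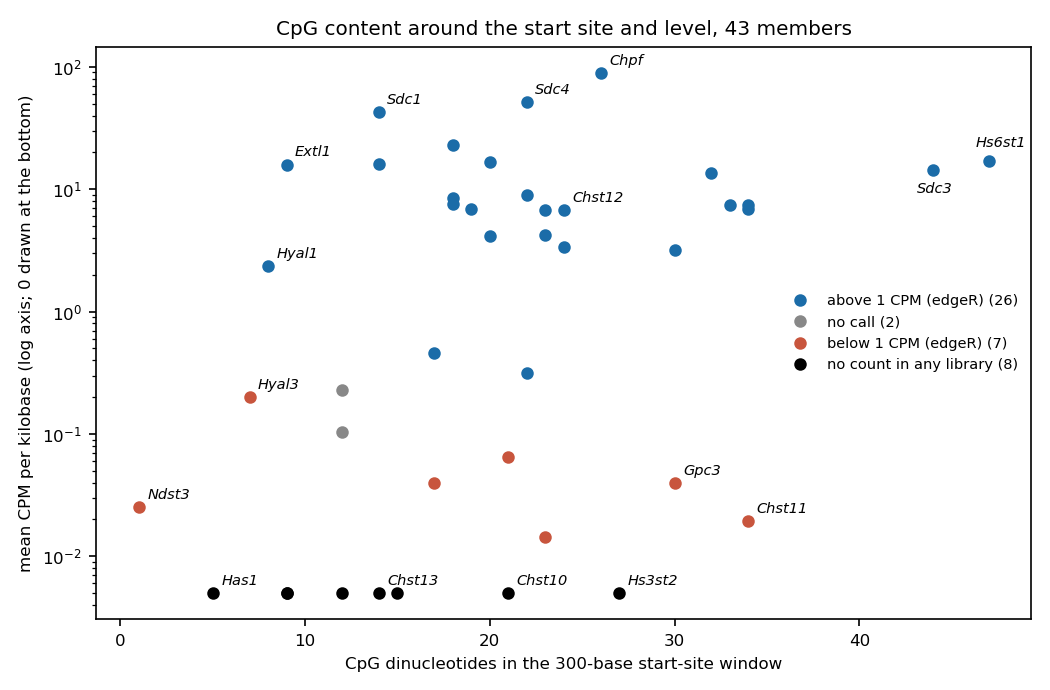
CpG dinucleotides in the 300-base window around the RefSeq start site (x axis) against the mean CPM per kilobase in the 3 Mock libraries (y axis, log scale, 0 drawn at the bottom) for 43 members, coloured by the call against 1 CPM. Members above 1 CPM range from 8 to 47 CpG, and Chst11 and Gpc3 lie low with 34 and 30.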

How the data were processed

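RNA of 3 Mock samples was sequenced after NucleoSpin purification and library preparation by BGI, per the labels' protocols, and GRCm38.p6 is the build in the submitters' processing notes. For the aligner, counter, annotation and strand the sources used here give nothing, so reads of overlapping genes may be assigned to either. The deposited table gives estimated counts per symbol, not normalized, and counts were rounded to whole numbers. Fractional counts (by more than 0.005) occurred in 2270 rows and in 4 members.

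Libraries were scaled by TMM (factors 0.998 to 1.003). For the 14408 genes with a count, an edgeR 4.0.16 fit (R 4.3.3) with only an intercept gave a quasi-likelihood F test of the level against 1 CPM, with its p held no lower than that of a Poisson likelihood ratio test where the fitted dispersion was under Poisson. Ratios within libraries (counts plus 0.5) were tested with limma 3.58.1 over 14095 genes, and variation by a Poisson deviance test for means of at least 10 counts. All p-values are two-sided except that of the deviance test, with Benjamini-Hochberg adjustment and a threshold of 0.05. Lengths and places came from GENCODE M21 (GRCm38), as merged exons, for all 58 members, of which 14 share exon bases with another gene and 5 share more than 10% of them. Tests were also run on simulated counts, with a fixed small dispersion or Poisson noise and not the dispersion fitted to these data. No error rate is taken from those runs. Values in each library are given for the 3 highest members per role, the pairs and the members nearest 1 CPM, and the others are named with counts. Members, lists and pairs were chosen with earlier results of these data known. A further 16 listed symbols were not analysed here, including Hs6st2, Hs6st3, Hs3st1, Hs3st3a1, Hs3st4, Hyal4, Hyal5 and Hyal6. The values of 1 pathway gene are not reported here. Alternatives tried were other scaling, a filter of 10 counts, DESeq2 1.42.0, levels of 0.5 and 2 CPM, other lengths, a pseudocount of 1 and leaving out each replicate.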

Additional observations from a re-analysis of the deposited data

How the results depend on the processing

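The number of members above 1 CPM was 34 and ran from 33 to 36 over all alternatives. The 37 pathway genes outside the rule and the 0 members called as varying were the same under each. The number below 1 CPM was 11. With a filter of 10 counts it was 2, because 9 of the members called below have fewer. It was 0 with DESeq2's Wald test, which called 0 genes of the whole table below, also at an unadjusted p under 0.05. Against a level of 0.5 CPM it was 7. With each replicate left out it ran from 8 to 10. Ndst3, Hyal3 and Has3 lost their calls without replicate 2 and without replicate 3. Without replicate 1 they kept them, but Hs3st6 had no read left and was not tested. Against 2 CPM the log2 distance turned to -0.57 for Sulf2 and -0.43 for Vcan. Against 0.5 CPM the log2 distance turned to 0.83 for B3gat2 and 0.088 for Has3. Sulf2 and Vcan were called above 0.5 CPM (edgeR adjusted p = 0.00132 for Sulf2 and 0.00181 for Vcan). For B3gat2 the log2 distance to 1 CPM lay between -0.53 and 0.082 when a replicate was dropped. Of the 12 pairs called, 10 were called with the longest transcript, 11 with reads alone and 10 with a filter of 10 counts, which leaves out Sulf1 and Chst11. Levels, shares and bounds with the longest transcript were added after the data were seen. Reads alone turned the ratio to 0.32 for Sdc1/Sdc4 and 0.45 for Sdc3/Sdc2. No paired analysis was possible because there is only 1 group. Depth limits the members under about 10 reads.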
